A study of Mus musculus with 6 samples.

Results

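The mesodermal basic helix-loop-helix (bHLH) factors described here are Hand1, Hand2, Twist1, Twist2, Tcf21, Msc, Tcf15, Mesp1, Myf5 and Scx, 10 genes chosen by name out of the 22564 features of a TPM table. TPM expresses a gene's RNA relative to all RNA in the library after correction for length. Each library was made from a foregut microdissected from 1 mouse embryo on a mixed strain background. There were 3 Gli2-/-, Gli3-/- mutants, in which both alleles of Gli2 and of Gli3 were mutant. These genes encode the main transcriptional effectors of Hedgehog (HH) signaling. The 3 Gli2+/-, Gli3+/- controls, called littermates by the study, also carried 1 mutant allele of each gene. The sex of the embryos was unknown. Mutants 1, 2 and 3 had 19, 22 and 21 somites, and controls 1, 2 and 3 had 19, 24 and 21. Each library held endoderm and mesoderm together, so fewer cells of a type and less RNA per cell cannot be told apart for any gene below.

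bHLH factors bind DNA as dimers. Those restricted to certain tissues usually pair with the widely expressed E proteins Tcf3, Tcf4 and Tcf12 on the E-box, while Id proteins lack the DNA-binding basic region and hold E proteins away from DNA. The factors examined here are known for marking mesoderm by region. Hand1 and Hand2 act in lateral mesoderm and heart, Twist1 and Twist2 in mesenchyme and cranial neural crest, Tcf21 and Msc in pharyngeal mesoderm and the mesenchyme of internal organs, Tcf15 and Scx in somites and their tendon progenitors, Mesp1 in mesoderm leaving the primitive streak and Myf5 in skeletal muscle precursors.

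The 2 paralog pairs encode DNA-binding domains that are alike, which matters for reading their RNA levels apart. The most alike coding stretch of 150 bases within 1 exon is shown for each pair, 5′ to 3′ on the coding strand, with capitals at the bases that differ between the paralogs. The Twist1 stretch lies at chr12:33958324-33958473 (plus strand) and the Twist2 stretch at chr1:91801835-91801984 (plus strand), the Hand1 stretch at chr11:57831334-57831483 (minus strand) and the Hand2 stretch at chr8:57322225-57322374 (plus strand), all in mm10.
Twist1: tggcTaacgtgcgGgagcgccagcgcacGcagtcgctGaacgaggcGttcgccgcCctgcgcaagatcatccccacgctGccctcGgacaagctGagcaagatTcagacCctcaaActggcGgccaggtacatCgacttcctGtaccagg
Twist2: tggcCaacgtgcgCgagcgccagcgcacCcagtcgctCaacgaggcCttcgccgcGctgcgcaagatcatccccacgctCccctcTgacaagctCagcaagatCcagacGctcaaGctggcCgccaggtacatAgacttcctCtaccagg
Hand1: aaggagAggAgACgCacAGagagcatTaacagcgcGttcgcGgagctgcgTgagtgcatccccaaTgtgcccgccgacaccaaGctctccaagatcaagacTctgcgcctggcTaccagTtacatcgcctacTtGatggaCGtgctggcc
Hand2: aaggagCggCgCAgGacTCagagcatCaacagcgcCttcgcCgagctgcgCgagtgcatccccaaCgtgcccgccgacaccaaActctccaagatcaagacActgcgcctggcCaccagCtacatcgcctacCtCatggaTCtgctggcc
The Twist pair shared 135 of 150 bases (90.0%) and the Hand pair 130 of 150 (86.7%), with the longest identical run at 23 and 17 bases. Over all 45 pairs of the 10 genes and their coding transcripts, no identical run was longer than the 23 bases of Twist1 and Twist2. Exons of Hand2, Twist2 and Msc share 461, 1477 and 539 bases with genes annotated on the opposite strand (Hand2os1, Gm29100 and Gm9947), and the libraries do not mark strand. Scx lies within an intron of Bop1, also on the opposite strand.

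The targeted pathway and the tissue were checked in each library. Gli2 stood at 18, 36.96 and 27.52 TPM in mutants 1, 2 and 3 and at 16.85, 20.95 and 25.61 TPM in controls, and Gli3 at 53.70, 97.35 and 73.80 TPM in mutants and 79.15, 129.34 and 109.49 TPM in controls. Because a mutant allele may still be transcribed, the genotype cannot be read from these levels. Gli1, a direct HH target, was called lower, at 1.44 to 4.49 TPM in mutants and 21.57 to 37.77 TPM in controls (limma adjusted p = 0.0722). Markers of splanchnic mesoderm summed to 354 to 409 TPM in mutants and 332 to 393 TPM in controls, but the 3 genes differed among themselves, with Foxf1 at 4.25 to 23.68 TPM in mutants and 72.65 to 118.44 TPM in controls (adjusted p = 0.523), Pdgfra also lower and Vim higher, each without overlap between the genotypes. A sum of 5 endoderm markers was 565 to 820 TPM in mutants and 552 to 904 TPM in controls. Between 18646 and 19282 features were above 0 in a library, and the depth behind each value is unknown.

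Of the 10 genes, 7 had a mean of at least 1 TPM and were tested, while Scx, Mesp1 and Myf5 were below that level. A gene was called if limma (on log2(TPM + 1), two-sided) gave it a Benjamini-Hochberg adjusted p no higher than 0.1 with a log2 fold change of 1 or more in either direction. None of the 7 was called. The study tested these foreguts by another method and reported more changed genes than this fit. A gene not called here is therefore not shown to be unchanged. Of the 14606 genes tested, 0.0411% were called, 0.0274% lower and 0.0137% higher in mutants, or 0.205% in both directions with the replicate number as a block. An unadjusted p under 0.05 was reached by 2 of the 7, Twist1 (higher) and Msc (lower), against 4.09% of all genes, 3.07% higher and 1.01% lower. The same 2 genes were those whose groups did not overlap, against 8.36% of all genes. With the block an unadjusted p under 0.05 was reached by 4 of the 7, Hand2 and Tcf15 in addition, against 9.79%. The median log2 fold change of the 7 genes was 0.29, beside 0.11 for all genes tested. This median rested on single libraries, at -0.10 without mutant 1, 0.07 without control 2 and 0.60 without mutant 3. Another scaling of the libraries, by the median of ratios, gave 0.15 for the 7 genes and -0.02 for all genes. In the unscaled fit, with the median of all genes taken off, Twist1 stood at 1.53, Tcf15 at 1.05, Hand2 at 0.29, Tcf21 at 0.17, Twist2 at -0.22, Hand1 at -1.31 and Msc at -2.02 on the log2 scale.

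**Figure D1:**
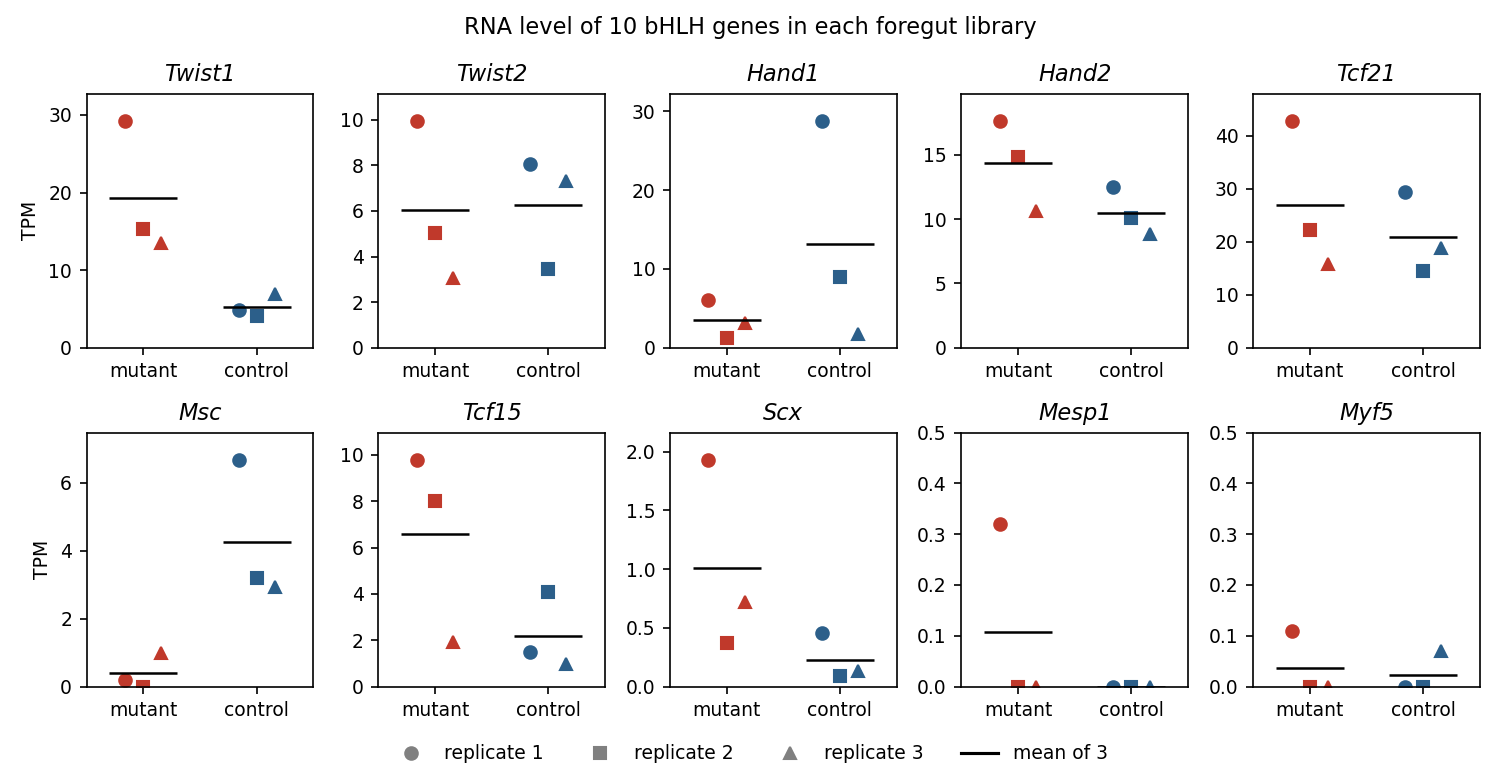
RNA level in TPM of each of the 10 bHLH genes in the 3 mutant (left, red) and 3 control (right, blue) libraries, with marker shape for the replicate number and a line at the mean of 3. Twist1 in mutants (13.45 to 29.26 TPM) lies above all controls and Msc in mutants (0 to 1.00 TPM) below all controls, while the groups of the other genes overlap.

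Twist1 had the largest positive difference of the 7. This factor is needed for cranial mesenchyme and the closure of the cranial neural tube (ENSMUSG00000035799.6, chromosome 12, 33957671 to 33959829). It stood at 29.26, 15.35 and 13.45 TPM in mutants 1, 2 and 3, against 4.82, 4.06 and 6.98 TPM in controls 1, 2 and 3. Every mutant was thus above every control, as in 6.68% of all genes tested, and mutant 1 was the highest by a wide margin. The means were 19.4 ± 8.6 TPM in mutants and 5.29 ± 1.51 TPM in controls (SD, n = 3), a 3.66-fold higher mean. The log2 fold change was 1.64 ± 0.34 (SE, 95% interval 0.86 to 2.43), with a limma adjusted p = 0.418 over all genes, or 0.192 with the block. Its paralog Twist2, known from dermis and other mesenchyme (chromosome 1, 91801461 to 91848028), had 9.96, 5.05 and 3.06 TPM in mutants and 8.04, 3.46 and 7.32 TPM in controls. These groups overlapped throughout, with a log2 fold change of -0.11 and a 95% interval from -1.11 to 0.90 (limma adjusted p = 0.999).

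The paralogs were read in the same libraries, so their ratio depends little on how the libraries are scaled. On the log2(TPM + 1) scale, Twist1 stood above Twist2 by 1.47, 1.43 and 1.83 in mutants 1, 2 and 3. In controls 1, 2 and 3 the same ratio was -0.64, 0.18 and -0.06, so that Twist2 was the more abundant in controls 1 and 3 and in no mutant. The difference of the mean ratios was 1.75 (exact permutation p = 0.1, two-sided, the smallest that 3 against 3 can give, and 0.15 adjusted over the 3 ratios compared). Flipping signs within same-numbered pairs gave an exact p = 0.25 for this ratio and for that of Tcf21 to Msc, the smallest that 3 pairs allow, and 0.5 for that of Hand1 to Hand2. Twist1 made up 24.8%, 22.9% and 27.1% of the summed TPM of the 10 genes in mutants 1, 2 and 3, against 5.23%, 8.40% and 14.6% in controls 1, 2 and 3.

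Summed markers of cell types in which Twist1 is known were also higher in the mutants. The summed TPM of 7 pharyngeal mesoderm markers was 98.5 to 125 in mutants and 59.5 to 93.8 in controls, and that of 8 neural crest markers was 93.2 to 122 in mutants and 59.5 to 89.5 in controls. None of these genes was at 0 in any library. In limma, 3 of the 7 and 1 of the 8 had an unadjusted p under 0.05, all higher, and 0 were called. Their part in the level of Twist1 was not tested.

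**Figure D2:**
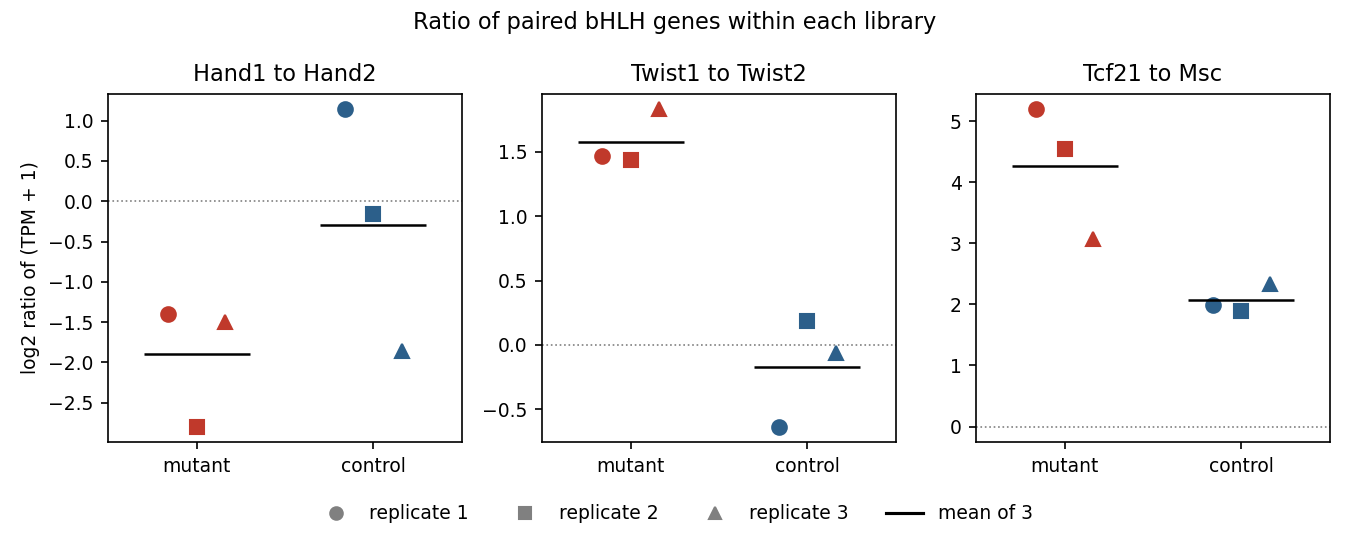
Log2 ratio of (TPM + 1) of Hand1 to Hand2, Twist1 to Twist2 and Tcf21 to Msc within each library, mutants left and controls right, with a line at the mean of 3 and marker shape for the replicate number. The Twist1 to Twist2 ratio is 1.43 or more in every mutant and 0.18 or less in every control, and the Hand1 to Hand2 ratios overlap.

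Msc, the factor also called MyoR and known as a repressor of muscle differentiation (ENSMUSG00000025930.6, chromosome 1, 14753346 to 14755992), had the largest negative difference of the 7. It was listed at 0.20, 0 and 1.00 TPM in mutants 1, 2 and 3, against 6.67, 3.18 and 2.92 TPM in controls. Every mutant lay below every control, as in 1.68% of all genes tested, and below the control of its number, as in 6.37%. The log2 fold change was -1.90 ± 0.41 (SE, 95% interval -2.85 to -0.96, limma adjusted p = 0.485, or 0.254 with the block). At such levels the size depends on the pseudocount, and the log2 fold change was -3.66 with 0.1 and -0.76 with 5 in place of 1. The summed TPM of 8 gut tube mesenchyme markers, of which Wnt4 was called lower, was 117 to 164 in mutants and 238 to 353 in controls. In limma, 3 of the 8 had an unadjusted p under 0.05, all lower, and 1 had a log2 fold change above 0. The sum of 7 pharyngeal mesoderm markers went the other way, at 98.5 to 125 TPM in mutants and 59.5 to 93.8 TPM in controls. The part of either tissue in the level of Msc was not tested.

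Tcf21 acts with Msc in the mouse in specifying muscles of the jaw, and it is a marker of epicardium and of the mesenchyme of lung and kidney (chromosome 10, 22817281 to 22820174). It was the most abundant of the 10 genes on average in both genotypes. It stood at 42.85, 22.18 and 15.73 TPM in mutants 1, 2 and 3 and at 29.37, 14.45 and 18.85 TPM in controls 1, 2 and 3. The ranges overlapped, and the log2 fold change of 0.29 had a 95% interval from -0.63 to 1.21 (limma adjusted p = 0.999). Its sign rested on mutant 1, without which the log2 fold change was -0.10. Within a library, the log2 ratio of Tcf21 to Msc was 5.19, 4.53 and 3.06 in mutants 1, 2 and 3 and 1.99, 1.89 and 2.34 in controls 1, 2 and 3, a difference of 2.19 (exact permutation p = 0.1, two-sided, or 0.15 adjusted over the 3 ratios). With the low level of Msc in mutants, this difference was 3.96 with a pseudocount of 0.1 and 1.01 with 5. Mesothelial markers, a tissue related to epicardium, had a summed TPM of 99.4 to 121 in mutants and 26.5 to 38.1 in controls over 7 genes, of which Upk3b was called higher (limma adjusted p = 0.0528). These sums did not overlap between the genotypes, whereas the Tcf21 levels did, and their part in the level of Tcf21 was not tested.

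The Hand genes showed opposite signs and neither was called. Hand1, which acts in the left ventricle, the extraembryonic tissue and the lateral mesoderm (ENSMUSG00000037335.13, chromosome 11, 57828705 to 57832818), stood at 6.08, 1.28 and 3.13 TPM in mutants 1, 2 and 3. Controls 1, 2 and 3 had 28.80, 8.91 and 1.70 TPM, a 16.9-fold range within 1 genotype and the widest of the 8 genes that were above 0 in all controls. Control 3 lay within the mutant range. The log2 fold change was -1.19 ± 0.82 (SE, 95% interval -3.10 to 0.71, limma adjusted p = 0.999). It was -2.08 without control 3 and -0.35 without control 1.

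The study names Hand1 as a marker of both duodenum mesenchyme and liver fibroblasts, and the 2 marker lists differed in their order over the controls. Duodenum markers Hoxc8, Pitx1 and Hoxb8 summed to 0.32, 0.05 and 0.05 TPM in mutants 1, 2 and 3 and to 2.30, 0.86 and 0 TPM in controls 1, 2 and 3, where they followed the order of Hand1. All 3 markers were at 0 in control 3 and none reached a mean of 1 TPM. The sum of 4 liver fibroblast markers was 86.8, 137 and 109 TPM in mutants 1, 2 and 3. In controls 1, 2 and 3 it was 67.5, 109 and 83.4 TPM, lowest in control 1, where Hand1 was highest. Most of this sum was Col3a1, at 53.53, 79.55 and 60.11 TPM in controls 1, 2 and 3. The genes differed among themselves. Msx1 was lower in mutants (0.37 to 1.26 TPM, against 1.73 to 3.13 TPM in controls). Col1a1 was higher (16.77 to 24.50 TPM, against 5.15 to 14.82 TPM), and Msx2 and Col3a1 overlapped between the genotypes. How far down the gut each dissection reached was not measured, and the part of these markers in the level of Hand1 was not tested. Of the genes tested for likeness, Irs4, H3f3a and Efna4 had the profiles nearest to Hand1, with Pearson r from 0.966 to 0.971 over the 6 libraries.

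Hand2, required for the right ventricle, the limb bud and the pharyngeal arches (ENSMUSG00000038193.4, chromosome 8, 57320983 to 57324633), varied least within each genotype among the 7 tested genes, by 1.66-fold over the mutants and 1.42-fold over the controls. It stood at 17.64, 14.84 and 10.62 TPM in mutants 1, 2 and 3 and at 12.52, 10.08 and 8.82 TPM in controls 1, 2 and 3. Each mutant was above the control of its number, as for 25.7% of all genes, but mutant 3 lay below control 1. The log2 fold change of 0.41 had a 95% interval from -0.19 to 1.01 (limma adjusted p = 0.999, or 0.507 with the block). The within-library log2 ratio of Hand1 to Hand2 was -1.40, -2.80 and -1.49 in mutants 1, 2 and 3 and 1.14, -0.16 and -1.86 in controls 1, 2 and 3. Control 1 was thus the library with more Hand1 than Hand2, and the groups overlapped (difference -1.60, exact permutation p = 0.3, two-sided, equal after adjustment over the 3 ratios). That difference was -0.88 without control 1 and -2.38 without control 3.

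The gene most like Hand2 across the 6 libraries was Tnnt2, which encodes cardiac troponin T (Pearson r = 0.995), followed by Uckl1 and Pi4k2a (both 0.980). Tnnt2 had 367.52, 214.77 and 61.11 TPM in mutants 1, 2 and 3 and 123.82, 50.52 and 40.98 TPM in controls 1, 2 and 3. The sum of 10 cardiomyocyte markers, all above 0 in every library, was 335 to 1810 TPM in mutants and 307 to 866 TPM in controls. Of the 10 markers, 9 had a log2 fold change above 0, and 0 reached an unadjusted p under 0.05 in limma with genotype alone. With the block some did, as Hand2 did, and others did not. Among those that did were Tnnt2 (limma unadjusted p = 0.0018), Myl7 (0.0072), Myh6 (0.014) and Actc1 (0.018), and 0 were called. The libraries had the same order by Tnnt2 as by Hand2. By the sum of the 10 markers, however, mutant 3 (335 TPM) lay below control 2 (455 TPM), the reverse of their order by Hand2. The study describes taking away most of the heart and paraxial tissue for its single-cell foreguts, but gives no such detail for the foreguts measured in bulk. The part of heart tissue in the level of Hand2 was not tested.

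**Figure D3:**
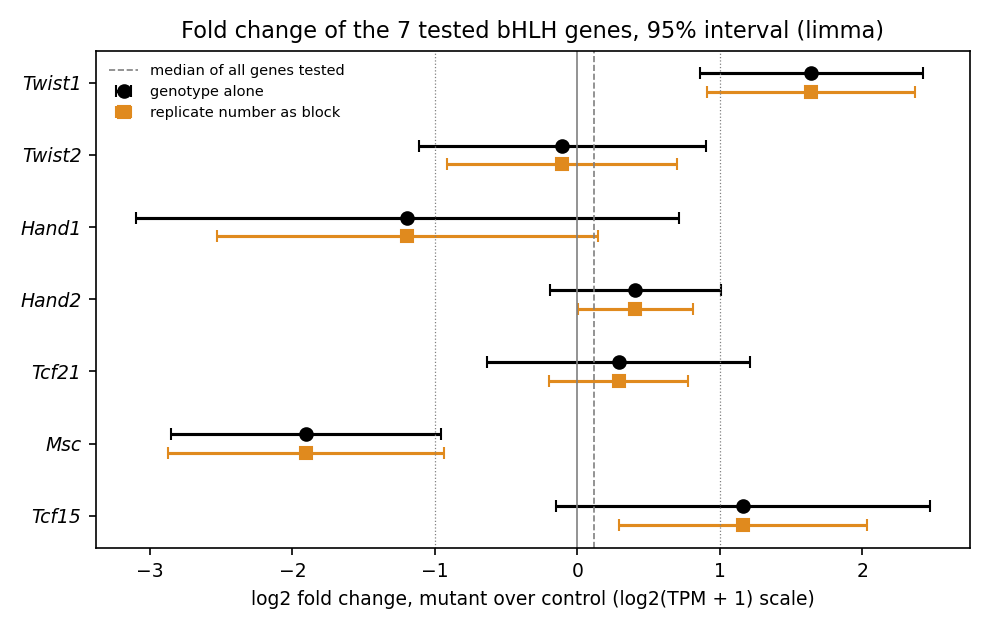
Log2 fold change of mutant over control on the log2(TPM + 1) scale for the 7 tested genes, with 95% intervals from limma with genotype alone (black circles) and with the replicate number as a block (orange squares). The dashed line is the median of all genes tested, 0.11, and dotted lines mark -1 and 1. The intervals of Twist1 and Msc exclude 0 in both fits, and those of Hand2 and Tcf15 only with the block.

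Among the factors of paraxial mesoderm, Tcf15, needed for somites to form epithelium (chromosome 2, 152143561 to 152149097), stood at 9.79, 8.03 and 1.92 TPM in mutants 1, 2 and 3 and at 1.5, 4.10 and 0.99 TPM in controls 1, 2 and 3. Mutant 3 lay below control 2, so the groups overlapped, although each mutant was above the control of its number. The log2 fold change was 1.16 with a 95% interval from -0.15 to 2.48 (limma adjusted p = 0.999), or from 0.29 to 2.03 with the block (adjusted p = 0.423). Scx, a marker of tendon progenitors (chromosome 15, 76457452 to 76459458), was low, at 1.93, 0.37 and 0.72 TPM in mutants 1, 2 and 3 and 0.46, 0.09 and 0.13 TPM in controls, and was not tested. Somite markers other than these, 7 in the table and all above 0 in at least 1 library, summed to 55.3 to 100 TPM in mutants and 16.7 to 43.7 TPM in controls. Of the 5 tested, 3 had an unadjusted p under 0.05, all higher, and 0 were called. The part of somite tissue in the levels of Tcf15 and Scx was not tested.

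Factors of the earliest mesoderm and of committed muscle were close to the bottom of the scale. Mesp1 was listed at 0.32 TPM in mutant 1 and at 0 in the other 5 libraries. Myf5, the first myogenic factor expressed in the mouse embryo, was listed at 0.11 TPM in mutant 1, 0.07 TPM in control 3 and 0 elsewhere. At an unknown depth, such values do not tell a gene that is off from one that is rare.

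Levels were then compared between the genes, which TPM allows because it is corrected for transcript length. In mutants the order of mean TPM was Tcf21 (26.9), Twist1 (19.4), Hand2 (14.4), Tcf15 (6.58), Twist2 (6.02), Hand1 (3.50) and Scx (1.01), ahead of Msc, Mesp1 and Myf5. Neighbors in this order overlapped in their ranges over the 3 mutants except Hand2 and Tcf15. In controls the order was Tcf21 (20.9), Hand1 (13.1), Hand2 (10.5), Twist2 (6.27), Twist1 (5.29), Msc (4.26), Tcf15 (2.20) and Scx (0.23), with Myf5 and Mesp1 last. Here neighbors overlapped from Tcf21 down to Hand2 and from Twist2 down to Tcf15, whereas Twist2 lay below Hand2 and Scx below Tcf15 in every comparison of libraries.

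**Figure D4:**
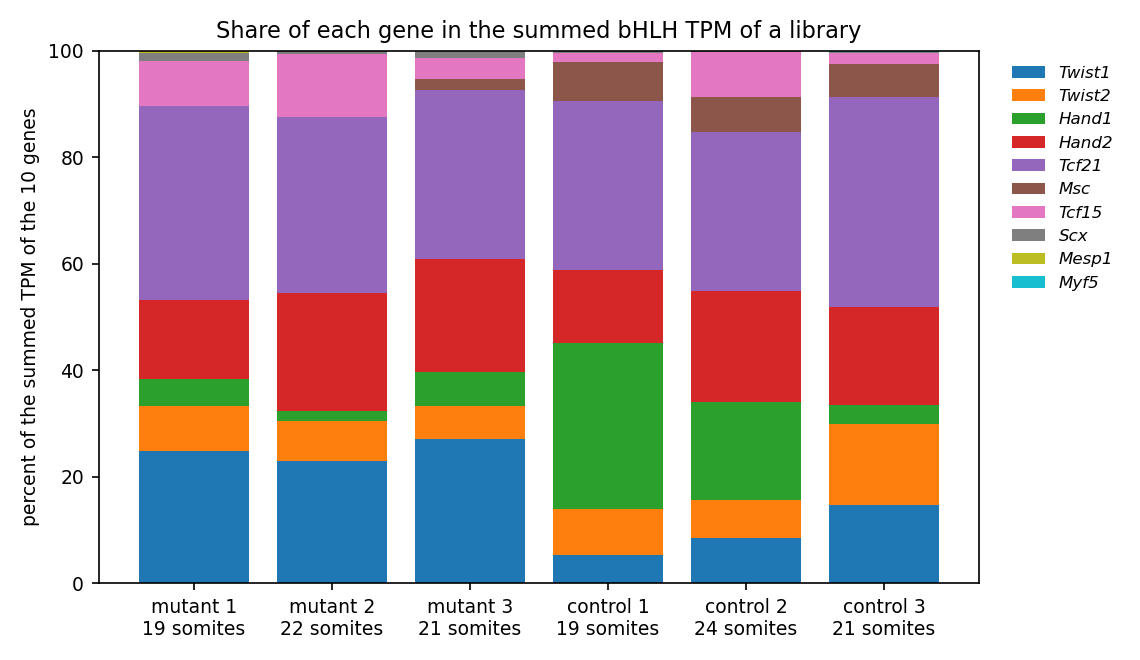
Share of each gene in the summed TPM of the 10 bHLH genes, for mutants 1 to 3 (left) and controls 1 to 3 (right) with the somite number of each embryo. Twist1 takes 22.9% to 27.1% in mutants and 5.23% to 14.6% in controls, and Hand1 takes 1.91% to 6.31% in mutants and 3.56% to 31.2% in controls.

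The summed level of the 10 genes was highest in the libraries from 19-somite embryos, at 118, 67.1 and 49.6 TPM in mutants 1, 2 and 3 and 92.2, 48.3 and 47.8 TPM in controls 1, 2 and 3. Mutant 1 was the highest mutant for 6 of the 7 tested genes, all but Msc, against 39.9% of all genes tested. Control 1 was the highest control for 5 of the 7, all but Twist1 and Tcf15, against the same 39.9%. Each genotype had 1 embryo of 19 somites, so this stage and this library cannot be told apart. The profiles most like Twist1 were those of Spice1, Nab2 and Micall1 (Pearson r from 0.991 to 0.994 over 6 libraries), and those most like Msc were Dpysl3, Fzd7 and C630043F03Rik (0.942 to 0.956). Dgat1, Fam126a and D17H6S53E were most like Twist2 (0.994 to 0.999), Dus2 and Meis3 were most like Tcf21 (0.996 and 0.997, Dus2 the higher), and Pet100, Ppp1r9b and Pyroxd1 were most like Tcf15 (0.971 to 0.974). These r values are the highest of at least 9762 genes searched, over 6 libraries that share stage and genotype differences, and are given as a description.

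The dimer partners and inhibitors of these factors were examined next, and none was called. The mean TPM of each E protein was above that of each of the 10 genes in both genotypes. Tcf12 had 148.97, 241.25 and 213.53 TPM in mutants 1, 2 and 3 and 135.20, 222.17 and 193.58 TPM in controls. Tcf3 stood at 41.91 to 72.60 TPM in mutants and 43.27 to 63.57 TPM in controls, and Tcf4 at 32.95 to 48.66 TPM in mutants and 38.78 to 47.26 TPM in controls. Their log2 fold changes lay between -0.08 and 0.13 (limma adjusted p = 0.999 for each). Of the Id inhibitors, Id3 stood at 86.25 to 209.71 TPM in mutants and 67.36 to 226.69 TPM in controls. Id1 (18.87 to 47.42 TPM in mutants and 12.25 to 37.07 TPM in controls) and Id2 (59.92 to 84.72 TPM in mutants and 49.95 to 110.33 TPM in controls) likewise overlapped, and Id4 was at 6.71 TPM or less in all libraries. Log2 fold changes of the 4 Id genes lay between 0.06 and 0.31, with the libraries numbered 1 highest in both genotypes for Id1, Id2 and Id3.

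Other bHLH classes were compared as lists. Of the 43 genes in the 5 lists, partners and inhibitors included, 18 were tested and 0 were called, with 2 at an unadjusted p under 0.05, both higher. These were Hey1, a Notch effector of endothelium, at 35.11, 45.02 and 35.00 TPM in mutants 1, 2 and 3 and 16.68, 22.42 and 31.19 TPM in controls (limma adjusted p = 0.999), and Atoh8, at 11.37, 14.23 and 10.23 TPM in mutants and 3.94, 6.16 and 7.24 TPM in controls (adjusted p = 0.863). For both genes the mutants lay above all controls. The Hes and Hey repressors, 5 tested of 7, had a median log2 fold change of 0.41, and the mesodermal and endothelial list, 3 tested of 14, had 0.75, with the blood factor Tal1 at 7.50 to 23.40 TPM in mutants and 4.76 to 20.62 TPM in controls. The sum of 5 endothelial markers was 107 to 159 TPM in mutants and 54.5 to 94.9 TPM in controls, and its part in these values was not tested. Of the neural and endodermal list, 3 of 15 were tested. Of these, Olig2 and Neurod4, both neural, reached 9.23 and 8.05 TPM in mutant 2 and at most 0.69 TPM elsewhere.

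**Figure D5:**
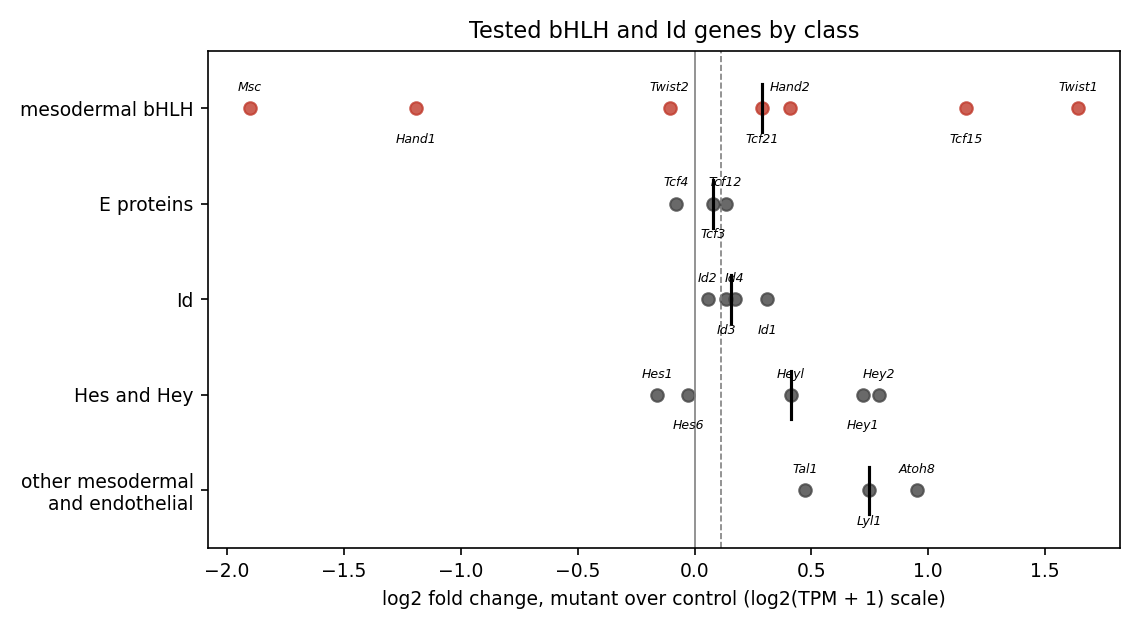
Log2 fold change of mutant over control on the log2(TPM + 1) scale for each tested gene of 5 classes, a row for each class, with a short black line at the median of the class and a dashed line at the median of all genes tested (0.11). E proteins and Id genes stay between -0.08 and 0.31, while the mesodermal bHLH genes in red spread from -1.90 to 1.64.

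Promoters of 6 of the 10 genes were found in the RefSeq promoter table (GRCm38.p6, 250 bases before and 50 after the start). The E-box, CANNTG on both strands, occurred 2 times in the Hand2 promoter and 2 times in that of Mesp1, and 0 times in those of Twist1, Twist2, Tcf21 and Myf5, while 72.3% of 32851 promoters of this length held at least 1. The Gli motif GACCACCCA, searched on both strands, was found in none of the 6 and in 0.253% of all promoters. Hand1, Msc, Tcf15 and Scx had no entry.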

How the data were processed

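RNA from 6 single-embryo foreguts was amplified with the SMART-Seq v4 kit and made into Nextera XT libraries, which select polyadenylated RNA and do not mark strand. Per the labels and the study's methods, the authors aligned reads to mm10 with the CSBB pipeline and deposited 1 table of TPM values per gene. Which quantifier and gene annotation they used is not given in the sources used here. TPM keeps no depth, so the precision that depth gives is unknown. The study tested genotypes with RUVSeq, which needs counts. TPM values were instead tested here on the log2(TPM + 1) scale with limma 3.58.1 in R 4.3.3 (empirical Bayes with a mean-variance trend, genotype as the term), for 14606 of 22564 features with a mean of at least 1 TPM. Fold changes on this scale understate the change of low genes. Calls took the limits of the study's methods (a figure legend of the study gives a stricter false discovery rate), a Benjamini-Hochberg adjusted p no higher than 0.1 with a log2 fold change of 1 or more in either direction.

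Groups and replicate numbers came from the labels, which do not say what a number marks. Same-numbered mutants and controls deviated together from their group means (correlations 0.67, 0.37 and 0.15 over genes for numbers 1, 2 and 3), although mutant 2 with control 3 and mutant 3 with control 2 both reached 0.24, above number 3. All 3 same-numbered values were over 0.1, so a fit with the number as a block was run beside the fit with genotype alone. In the sample titles, the part before the point is the same in both genotypes for number 1, but not for numbers 2 and 3. The study calls the controls littermates, but its reporting summary also says that control and mutant embryos came from separate litters. Whether same-numbered samples form pairs is thus uncertain, and so are the results with the block or within pairs. Within-library ratios were compared by exact permutation. The 10 genes and the other lists were chosen with earlier results of these data known. The text names all 10 genes, all E protein and Id genes, at most 4 genes of each other list by mean TPM, any gene called, the Gli genes checked, and the 3 genes most like each tested gene. Results for 2 genes that this rule takes are not reported here. Only the fit with genotype alone was tested on simulated data. The simulated noise was independent between libraries, without the shared deviations of same-numbered samples. Sequences and positions came from GENCODE M21 transcripts on mm10, and promoters from RefSeq (GRCm38.p6). Tables and plots used Python 3.11.15, scipy 1.17.1 and matplotlib 3.10.9. Alternatives changed the pseudocount, filter, threshold, scaling, covariates, weights and the libraries used.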

Additional observations from a re-analysis of the deposited data

How the results depend on the processing

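None of the 10 genes was called under any of 18 alternatives in which it was tested. Scx, Mesp1 and Myf5 were tested only with no filter on low values. Of 124 values of the tested genes under these alternatives, 120 kept their direction and 4 reversed, none of them called in any setting. Changing the filter or the threshold, or adding the block, leaves a log2 fold change as it is, so agreement there was fixed in advance. The log2 fold change of Twist2 ranged from -0.49 to 0.23 with 1 library left out, and was 0.08 without control 1, 0.02 without control 3 and 0.23 without mutant 3. That of Tcf21 ranged from -0.10, without mutant 1, to 0.60, without mutant 3. Twist1 ranged from 1.2, with a pseudocount of 5, to 1.85, without mutant 3 (lowest limma adjusted p = 0.192), Hand1 from -2.08 to -0.35 (0.554), Hand2 from 0.25 to 0.60 (0.507), and Tcf15 from 0.64 to 1.75 (0.423). Msc kept its sign in 17 alternatives (lowest 0.241, with the somite number as covariate). Msc and Tcf15 could not be tested at a mean of at least 5 TPM. The 3 within-library ratios kept their sign in 12 alternatives each.

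Over all genes, limma called 6, 4 lower and 2 higher. From the same foreguts the study reported more genes in both directions with RUVSeq, Foxf1 among the lower. The replicate block called 30 (16 lower, 14 higher) and changed no call among the tested bHLH genes. The somite number as covariate called 27 (14 lower, 13 higher) and array weights 26 (16 lower, 10 higher). Median-of-ratios scaling called 9 (7 lower, 2 higher), quantile normalization 11 (9 lower, 2 higher) and rescaling without accession-named features 16 (13 lower, 3 higher). No filter on low values gave 3, a mean of at least 5 TPM gave 1 and an adjusted p of at most 0.05 gave 3. With 1 library left out the count ranged from 0 to 7. It was 0 in limma without control 2 (445 genes at an unadjusted p under 0.05), without control 3 (561) and without both libraries numbered 1 (626). The cause was not tested.

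With 3 embryos a genotype, the smallest p of an exact test of 1 value is 0.1. TPM leaves the depth of the low values of Msc, Scx, Mesp1 and Myf5 unknown.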
